A study of Mus musculus with 4 samples.

Results

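Sharp promoters were taken here as narrow clusters of transcription starts. For each gene with a name, the cluster of tag starts with the largest mean level over 4 libraries was kept as its top cluster, and it counted as sharp when that mean reached 10 CPM (tag counts scaled to library size) and the cluster spanned at most 20 bp, end minus start. The rule gave 342 sharp promoters among 10371 top clusters of at least 10 CPM (3.3%), from 17849 genes with a name and 69391 entries in all. Some clusters were listed under several genes, so the 342 entries stood for 321 distinct clusters, and the 10029 wider top clusters for 9644. The members were chosen by measured width and level, and both are given below as a description without a test.

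Against the annotation (GENCODE M21), the name promoter held for part of the set. Of the 342, 143 (41.8%) were coding genes whose cluster lay within 100 bp of an annotated start and at no internal exon. Another 96 were processed pseudogenes (28.1%). In 55 (16.1%) the cluster began at the first base of an internal exon or a few bases before it; this kind was assigned first, and 32 of the 55 were also at most 100 bp from the annotated start of some transcript. Of the rest, 13 were coding genes with the cluster elsewhere and 35 were genes of another kind, mostly small RNAs. Among the 10029 wider top clusters the same kinds made up 88.9%, 1.59%, 0.299%, 5.36% and 3.87%. The main kinds are described apart below.

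A promoter with a TATA box, a short A- and T-rich motif a little upstream, usually starts transcription within a few bases, and is typical of genes that are switched on strongly in 1 tissue or state. Promoters in CpG islands, typical of housekeeping genes, start transcription over a wide stretch. In skin, the genes of terminal differentiation and of the hair shaft lie in large families of short, closely linked genes.

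The data are from cap analysis of gene expression (CAGE), which sequences tags from the capped 5′ end of RNA. The 4 libraries form 1 group: lesional facial skin of C57BL/6 mice at postnatal day 28 with the genotype Nectin-cre(+);Ikk2FL/FL;Postn-/-. These are FADS mice, a model of facial dermatitis in which Ikk2, a kinase of the NF-κB pathway encoded by Ikbkb, is deleted by Cre, and all of them also lack periostin (Postn), a matrix protein. There is no control group, and the labels state neither the cells in which the Cre acts nor the number of animals. The p-values below thus cover the spread among these 4 samples, and part of that may be technical. Libraries 1 and 2 share a sample code except for a last letter, L or R, and so do libraries 3 and 4. Whether such a pair came from 1 animal is not stated; if it did, the libraries are not independent and the p-values below are too small.

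Distinct clusters held 16492915 to 17691558 tags per library, and 1 tag was worth 0.0531 to 0.0567 CPM. Postn was at 0.319 to 0.825 CPM and Ikbkb at 33.3 to 37.9 CPM, and the deleted part of either gene is not stated. All 8 keratinocyte markers were found in every library, with summed levels of 8670, 7518, 10780 and 10053 CPM in libraries 1 to 4. Hair shaft markers ran the other way, at 3349, 3183, 905 and 421 CPM, and gland markers to 28624 CPM in library 2, 3391 in library 4 and 14.1 in library 3, the lowest. Skeletal muscle markers summed to 2607, 1928, 3106 and 4852 CPM and fibroblast markers to 3447, 3067, 5853 and 5155 CPM, both lower in libraries 1 and 2 than in libraries 3 and 4. Fewer cells of a type and less RNA per cell cannot be told apart in bulk skin.

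The width limit fell in a trough of the distribution. Widths of 6 to 10 bp were found for 133 top clusters, 16 to 20 bp for 47, 21 to 30 bp for 80 and 51 to 100 bp for 2024. The median width was 10 bp in the sharp set and 142 bp in the other top clusters. At the limit, 6 genes had a width of 20 bp, the highest being Gm10036 (75.4 CPM), Crisp1, which encodes a secreted cysteine-rich protein (55.5) and the chaperone Clu (50.2). At 21 bp were 9 genes, led by Gm6252 (622 CPM), Krtap1-5 (401) and Krtap4-16 (72.8). At the limit of level, the water channel gene Aqp5 (10.04 CPM), Zfp422-ps (10.12) and Gm11596 (10.14) were just inside, and Gm45618 (9.97), Ceacam10 (9.91) and the activin antagonist Fst (9.91) just outside.

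**Figure D1:**
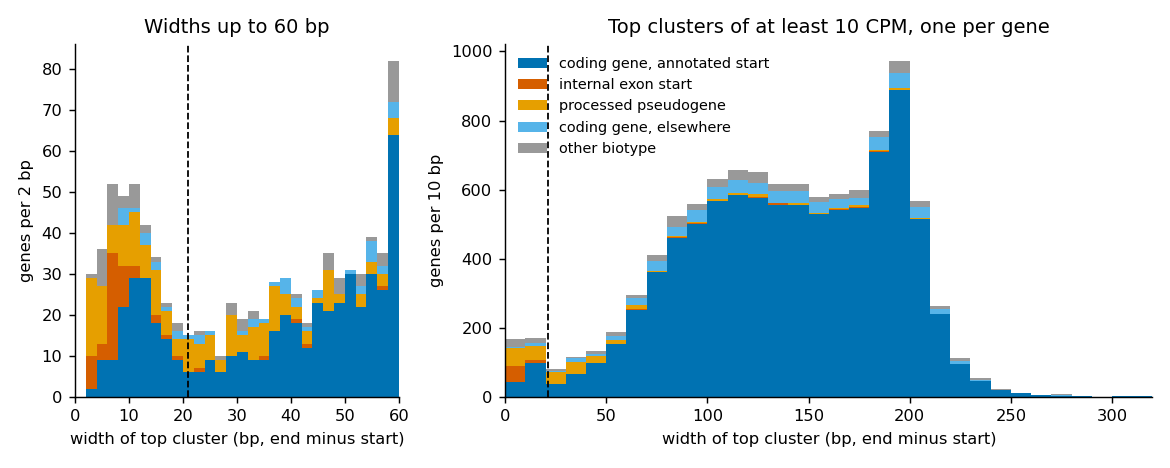
Width of the top cluster of each of 10371 genes, in bins of 2 bp up to 60 bp (left) and of 10 bp (right). Colours give the kind of gene and place, and the dashed line marks the limit between 20 and 21 bp. Orange and yellow bars, the internal exon starts and processed pseudogenes, make up a large part of the narrow widths and little of the broad peak.

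The sequences around the sharp starts of coding genes are shown for the highest member, with a RefSeq window that reaches it, of each of 7 classes, since they carry the motif the results turn on. Each runs 5′ to 3′ from 60 bases before to 20 bases from the cluster's midpoint on, and capitals mark TATAA or TATATA.

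Krtap22-2: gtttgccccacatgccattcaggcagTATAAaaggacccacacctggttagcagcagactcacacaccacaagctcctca
Sprr1a: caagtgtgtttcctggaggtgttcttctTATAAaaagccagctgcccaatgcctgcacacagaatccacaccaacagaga
H4c4: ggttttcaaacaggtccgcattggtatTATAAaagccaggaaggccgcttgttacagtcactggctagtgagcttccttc
Krt10: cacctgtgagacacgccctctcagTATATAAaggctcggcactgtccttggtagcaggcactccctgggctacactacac
Bpifa2: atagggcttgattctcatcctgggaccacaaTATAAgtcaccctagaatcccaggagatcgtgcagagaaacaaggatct
Ier3: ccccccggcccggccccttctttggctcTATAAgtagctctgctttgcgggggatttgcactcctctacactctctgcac
Rps27rt: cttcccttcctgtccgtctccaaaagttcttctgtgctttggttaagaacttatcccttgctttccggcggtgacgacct

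On GRCm38 these lie at chr16:89010741-89010820 (minus strand) for the hair keratin-associated protein gene Krtap22-2, chr3:92485873-92485952 (minus) for the cornified envelope precursor Sprr1a and chr13:23581509-23581588 (plus) for the histone H4 gene H4c4. Krt10, a keratin of differentiating epidermis, is at chr11:99389337-99389416 (minus), and Bpifa2, a secreted protein of the parotid gland, at chr2:154008205-154008284 (plus). The immediate early gene Ier3 is at chr17:35821627-35821706 (plus) and the ribosomal protein gene Rps27rt at chr9:114982720-114982799 (minus). Of the 7, Rps27rt alone holds neither motif.

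For contrast, the 3 highest of the wider promoters of coding genes with such a window are shown. They are the secreted gland genes Gm1553 (3241 CPM, 113 bp wide) and Mucl2, a mucin-like gene (3117 CPM, 162 bp), and Cstdc5.

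Gm1553: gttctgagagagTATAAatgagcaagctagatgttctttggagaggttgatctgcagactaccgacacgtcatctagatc
Mucl2: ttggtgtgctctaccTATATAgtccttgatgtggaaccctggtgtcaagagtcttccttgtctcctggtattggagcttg
Cstdc5: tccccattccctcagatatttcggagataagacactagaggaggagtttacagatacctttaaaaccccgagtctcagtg

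They lie at chr10:82492579-82492658, chr15:103899276-103899355 and chr16:36367558-36367637, all on the minus strand. Both Gm1553 and Mucl2 hold a motif, and Cstdc5 holds none. In these wide clusters nearly all of the bases before the midpoint lie inside the cluster. Both motifs thus stand within the cluster and are not shown to lie upstream of its starts.

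Over all coding genes at an annotated start, TATAA or TATATA was found on the gene's strand in the 60 bases before the RefSeq start in 71 of 124 sharp promoters with a window (57.3%, 95% Wilson interval 48.5 to 65.6). It was found in 304 of 7181 wider promoters (4.23%, 3.79 to 4.72) and in 6.18% of all 32851 RefSeq promoters. Read instead before the midpoint of the cluster itself, 76 of 117 sharp promoters held it (65.0%). Of the wider ones 54.4% had a sequence there, too few for a comparison, and 172 of those 4848 held it (3.55%). In a wide cluster much or all of that stretch lies inside the cluster, so this share does not count motifs upstream of the starts. The motif on the reverse strand, which overlaps the forward one where it reads TTATAA or TATATA, was found in 20.2% of sharp and 2.73% of wider promoters. In the 60 bases that start 150 bases upstream the shares were 4.03% and 1.57%. Its place varied little: of 72 sharp promoters with TATAA before the midpoint, 69 had its first base 28 to 36 bases upstream, with a median of 32. In several gene classes the wider promoters held the motif about as often. Before the RefSeq start it stood in 11 of 18 sharp and 15 of 28 wider replication-dependent histone promoters. For the cornified envelope this was 7 of 20 and 9 of 17, for keratins 3 of 5 and 12 of 21, and for secreted gland genes 3 of 5 and 8 of 14. Predicted or clone names differed, at 12 of 17 and 8 of 119.

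**Figure D2:**
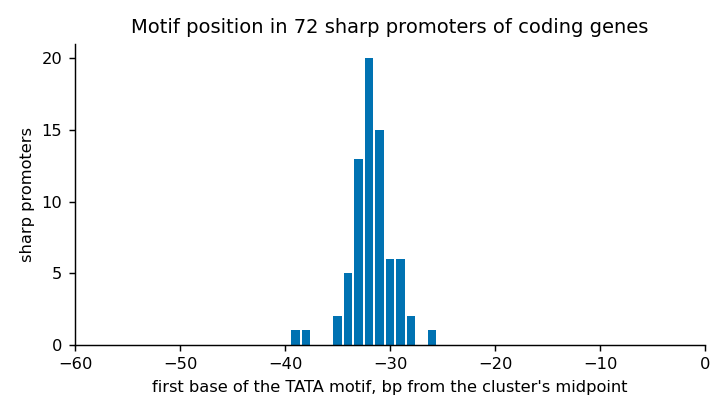
Position of the first base of TATAA, in bp from the cluster's midpoint, in 72 sharp promoters of coding genes (bars, number of promoters). The last match in the 60 bases before the midpoint is used, and 69 of the 72 lie between 36 and 28 bases upstream.

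CpG content went the other way. The ratio of observed to expected CpG in the 300-base RefSeq window had a median of 0.213 in sharp (quartiles 0.101 and 0.587) and 0.784 in wider promoters (0.613 and 0.919). A ratio of at least 0.6 was found for 29 of 124 sharp (23.4%) and 5491 of 7181 wider promoters (76.5%). None of the 29 belonged to the keratin, keratin-associated or cornified envelope classes. Among them were the histone H3.3 gene H3f3b (ratio 1.06, with a motif), the RNA helicase gene Ddx5 (0.900, with a motif), the stress gene Dusp1 (0.921, without) and several replication-dependent histone genes such as H2ac13 (1.04, with).

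Sharp promoters of coding genes at annotated starts had a median level of 70.4 CPM, against 36.8 CPM in wider ones. Over all kinds the medians were 49.1 and 36.2 CPM. Levels of at least 100 CPM were reached by 31.3% of sharp and 15.8% of other top clusters. The sharp set took 5.63%, 7.66%, 5.09% and 5.16% of the tags in libraries 1 to 4 (5.88 ± 1.21%, SD, n = 4). Library 2 stood highest, and without the secreted gland genes the share was 5.35 ± 0.277%.

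By class, sharp promoters were frequent in several families of terminal differentiation and among histones. They made up 23 of 45 keratin-associated protein genes, 21 of 42 cornified envelope genes, 18 of 53 replication-dependent histone genes, 6 of 25 secreted gland genes and 8 of 42 keratin genes. They also made up 21 of 130 cytosolic ribosomal protein genes, 17 of the 21 being pseudogenes. Further classes with sharp members were S100 protein genes (3 of 12), predicted or clone names (125 of 719), skeletal muscle genes (3 of 29) and immediate early genes (2 of 23). In other classes there were few or none: 0 of 47 proteasome, 62 translation factor and 21 collagen genes, 1 of 155 solute carrier genes and 1 of 57 heat shock genes. Of 98 genes of oxidative phosphorylation, 3 were in the set, and all 3 clusters lay at an internal exon. The share over all top clusters was 3.3%, from which counts of 0 or 1 in classes of this size, and 3 of 98, differ little. No test was made.

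The cornified envelope, the protein shell of dead keratinocytes, was represented by 21 genes, all in the epidermal differentiation region of chromosome 3. Sprr1a was at 1492, 1502, 1748 and 1331 CPM in libraries 1 to 4. Sprr1b, which encodes a related small proline-rich protein, was at 1088, 1156, 1797 and 1026 CPM, so library 3 was above the rest. The limma test of spread, described below, did not call it (adjusted p = 0.583). Lce1b, of the late cornified envelope family, was at 243, 203, 309 and 245 CPM. Library 3 was highest for 17 of the 21, against 35.1% of the other top clusters. The family split by motif: TATAA or TATATA stood before the midpoint in 5 of 6 Sprr genes and in 1 of 12 Lce genes, Lce1m. Loricrin (Lor, the main protein of the envelope) at 126 ± 20.3 CPM (SD, n = 4) held it, and Lce3d at 155, 126, 193 and 128 CPM did not. Close copies in both families may share tags, which leaves single levels uncertain.

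Of the keratins, the pair that fills suprabasal epidermal cells was sharp. Krt10 was at 2941, 2565, 3863 and 4277 CPM, and its partner Krt1 at 2321, 1864, 3172 and 2787 CPM. Both were higher in libraries 3 and 4 than in libraries 1 and 2, though limma called neither for spread (adjusted p = 0.859 for Krt10 and 0.874 for Krt1). Hair keratins ran the other way: Krt34 was at 420, 392, 108 and 58.0 CPM, and Krt33b at 371, 335, 89.1 and 53.6 CPM. Krt13, Krt19, Krt74 and Krt84 completed the class at means of 14.1 to 63.4 CPM. Lgals7, a galectin of stratified epithelia, was outside the classes, 10 bp wide and at 2963, 2942, 3376 and 3189 CPM, which is nearly level across libraries. S100a8, a neutrophil and keratinocyte alarmin, was at 199, 262, 356 and 275 CPM.

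The hair group was the largest that moved between libraries. Krtap22-2 was at 1461, 1342, 261 and 128 CPM; its cluster is also listed under the pseudogene Gm49689. Krtap19-5 was at 840, 850, 171 and 67.4 CPM, and Krtap19-3 at 798, 754, 137 and 56.3 CPM. In each of these, libraries 1 and 2 were close to each other and above libraries 3 and 4, with no overlap. Summed over the 23 keratin-associated members the levels were 7107, 6818, 1531 and 846 CPM. The motif stood in all 20 of those coding members with a sequence before the midpoint. Wider promoters of the class held it too: before the RefSeq start it stood in 16 of 20 sharp and 18 of 19 wider ones. Near-identical copies of this family can share tags.

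Replication-dependent histone genes, which are transcribed in S phase and make mRNA without a poly(A) tail, were level. H4c4 was at 2350, 2077, 2166 and 2283 CPM. H2bc18 was at 1323, 1264, 1248 and 1552 CPM, in a cluster also listed under Gm42743, and H4c3 was at 1323, 1224, 1098 and 1207 CPM. In all 3 the libraries lay close together. All 18 lay at annotated starts on chromosomes 3 and 13, with levels from 13.4 (H4c9) to 2219 CPM (H4c4). Copies of histone genes are nearly identical in their coding parts. The replication-independent gene H3f3b was at 1022, 987, 995 and 1051 CPM.

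The secreted gland genes had nearly all their tags in library 2 or in libraries 2 and 4. Bpifa2, at 4 bp among the narrowest, was at 4.18, 16004, 0.113 and 4.46 CPM. Smr3a, a salivary protein gene, was at 0.825, 3484 and 0.557 CPM in libraries 1, 2 and 4 and had no tag in library 3, where 3 tags would be 0.170 CPM. Pip, which encodes a protein of saliva and sweat and was not in the class list, was at 0.605, 2251 and 700 CPM and had no tag in library 3. Bpifa2 and Smr3a thus stood high in library 2 alone, while Pip, Mup4, Scgb2a2 and Esp31 were high in libraries 2 and 4. These gland genes reached 10 CPM only through library 2 or through libraries 2 and 4. Chosen again without library 2, the whole set counted 333, a number that also reflects changes in other members.

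**Figure D3:**
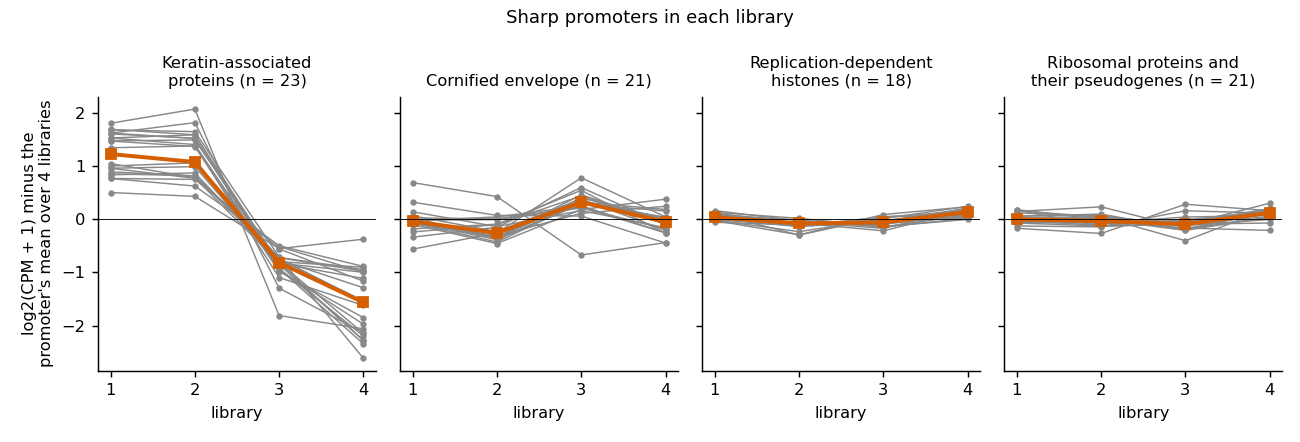
Sharp promoters of 4 classes in libraries 1 to 4: log2(CPM + 1) minus the promoter's own mean (grey lines, one per cluster; orange squares, class median). Lines join values of one promoter and the libraries have no order; the medians of keratin-associated protein genes lie above 0 in libraries 1 and 2 and below 0 in libraries 3 and 4, while those of histone and ribosomal members stay near 0.

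The spread over libraries was compared with that of clusters of like level. The SD of log2(CPM + 1) had a median of 0.18 over the 321 distinct sharp clusters and 0.10 over the other 9644. Without gland, keratin-associated and muscle genes it was 0.16 over 290 sharp and 0.10 over 9578 other clusters. At 300 CPM or more these were 0.13 and 0.11. The difference was largest for coding genes at annotated starts, at 0.37 against 0.10, and was present there at each level, from 0.40 against 0.12 at 10 to 30 CPM to 0.22 against 0.11 at 300 CPM or more. The 13 coding genes with the cluster elsewhere had a median of 0.22 against 0.12. Internal exon starts had a median of 0.12 against 0.13 in the wider ones, and processed pseudogenes of 0.13 against 0.12. Sharp promoters with the motif before the midpoint had a median of 0.62 (n = 76), those without it 0.23 (n = 41). This order rested on the hair and gland families: without keratin-associated, predicted and gland genes, a choice made after seeing the data, the medians were 0.16 (n = 40) with the motif and 0.22 (n = 36) without.

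The limma test of spread, with Benjamini-Hochberg adjustment at 0.05 over 25530 clusters, called 47 of the 321 sharp clusters (14.6%). It called 0.56% of all clusters tested and 0.633% of the other top clusters. Of the 47, 43 were coding genes at annotated starts, and 22 were highest in library 1, 25 in library 2 and none in library 3 or 4. Of the other top clusters, called or not, 25.9%, 4.96%, 35.1% and 34.0% were highest in libraries 1 to 4. In 42 of the 47 the mean of the other 3 libraries still reached 10 CPM without the highest one. The other 5 (Bpifa2, Smr3a, Gm21718, Scgb2b7 and Krtap31-2) reached that minimum only through their highest library, so their calls follow from the choice of members and are no support. Leaving out 1 library cannot settle this for members that were high in 2. Pip, Scgb2a2, Mup4 and Esp31 were under 1 CPM in libraries 1 and 3, so their calls are no support either. The same holds for the members under 10 CPM in both libraries 3 and 4. Besides Krtap31-2, these were Krtap31-1 (3.69 and 1.62 CPM), Krtap6-3 (5.33 and 3.4 CPM), Krt84, Crisp1, Gm11565 and 2310061N02Rik. The share of 14.6% includes all members whose calls are no support. Bpifa2 had the widest range, 13.93 on the log2 scale, and Smr3a the next, 11.87. They were followed by Pip (11.24), Scgb2a2 (7.34) and Mup4 (6.97). These 5 code for secreted proteins, and all were lowest in library 3.

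In 40 of the 47, both libraries 1 and 2 were above libraries 3 and 4. The share of all clusters with this order was not counted, so the number is a description only. Most of the 40 lay in 3 gene clusters of the hair shaft. On chromosome 16 from 88707957 to 89420135 there were 11, 10 Krtap genes and 1 predicted gene, with ranges of 2.82 to 4.43 on the log2 scale (adjusted p 0.00631 to 0.0442). On chromosome 11 from 99614836 to 100041557 there were 14: 9 Krtap genes, 2 keratins and 3 predicted genes. On chromosome 10 from 77697280 to 77852821 there were 12, Krtap12-1 and 11 predicted genes, with ranges of 2.13 to 3.13. The counts include members named above whose calls are no support. On chromosome 11 these are Krtap31-1, Krtap31-2 and Gm11565, and on chromosome 16 Krtap6-3 and 2310061N02Rik. Hair shaft markers moved the same way between the libraries, keratinocyte, muscle and fibroblast markers the opposite way, and the split falls between the pairs of libraries that share a code. The part of any of these in the result was not tested. The marker lists overlap the sharp set, so the sums are not independent of the members. Sharp members were 1 hair shaft marker (Krt34, itself called), 3 keratinocyte markers, 1 skeletal muscle marker and 3 gland markers (Bpifa2, Smr3a and Aqp5). Of the gland marker sum of 28624 CPM in library 2, Bpifa2 held 16004 CPM and Smr3a 3484 CPM. Without library 4 the test called 5 sharp clusters (Bpifa2, Mup4, Pip, Scgb2a2 and Smr3a), and without library 2 it called 40, losing Bpifa2, Smr3a, Krtap4-2, 2310061N02Rik, Gm10318, Gm11555 and Gm9736. Tested among clusters of at least 10 CPM alone, 3 remained (Bpifa2, Pip and Smr3a).

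Calls in sharp and wider clusters of the same class were set side by side. Among keratin-associated protein genes 20 of 23 sharp and 19 of 22 wider clusters were called, with a median SD of 1.44 and 1.33. Among secreted gland genes it was 6 of 6 and 13 of 18, with a median SD of 3.80 and 4.21. The 6 sharp gland clusters reached 10 CPM only through library 2 or libraries 2 and 4, so their calls are no support. The wider Krtap15 (94 bp), at 2271, 2202, 620 and 209 CPM, had the pattern of the sharp Krtap genes. No sharp histone cluster of 17 was called by limma, edgeR or DESeq2, none had an unadjusted p under 0.05, and their median SD was 0.12 against 0.13 in the wider ones. Of 21 cornified envelope members limma and edgeR called none, DESeq2 marked 2, and 9 had an unadjusted limma p under 0.05. Over all 25530 clusters tested, limma called 0.56%, edgeR 0.611% and DESeq2 1.62%, and 1705 had an unadjusted limma p under 0.05. The absence of calls among 17 histone clusters differs little from these shares. No test of the difference between sharp and wider clusters within a class was made.

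**Figure D4:**
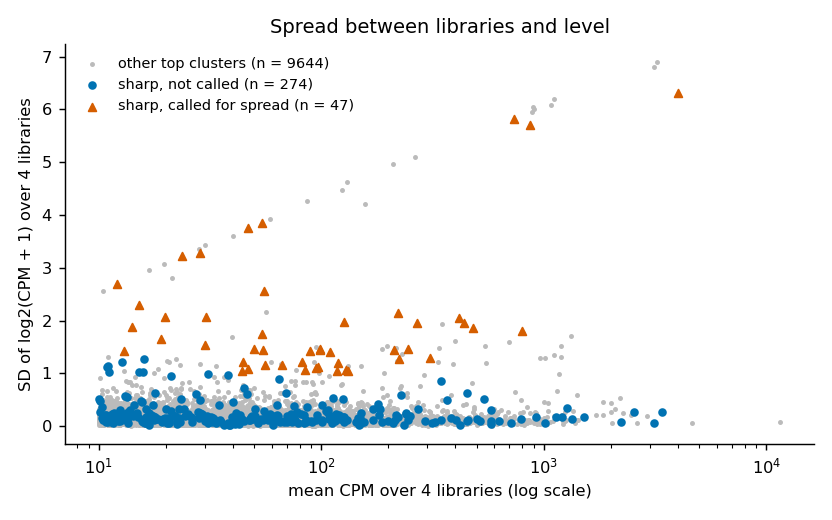
SD of log2(CPM + 1) over 4 libraries against mean CPM for 9644 other top clusters (grey) and 321 sharp ones (blue, not called; orange triangles, the 47 called). The called sharp promoters lie above an SD of 1 at levels from 12.1 CPM (Scgb2b7) to 4003 CPM (Bpifa2).

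The 55 members at an internal exon form another kind. Every one of these exons was exon 2 (in the first listed transcript that holds it), while exon 2 makes up 12.4% of the 121277 internal exon starts of all genes with a top cluster of at least 10 CPM. The 5′ edge of the cluster lay 2 bases before the exon in 29, 3 bases before in 9, 1 base before in 8 and from 6 before to its first base in the rest. The junction in the spliced transcript (GENCODE M21) is shown for Rpl8, Myh1 and Ndufa5, a subunit gene of respiratory complex I. Each line holds 15 bases of exon 1 and 15 of exon 2. The cluster's edge was placed on the genome, where the bases just before exon 2 belong to the intron of that transcript. Those intron bases are not shown. Capitals mark the last 2 bases of exon 1.

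Rpl8: cttgcttgccggcAGactcgccgccatggg
Myh1: tcataaagcttcaAGtttggacccacggtc
Ndufa5: ggcttgctgaaaaAGacaactggcctggtg

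The exon before ended in AG in 24 of the 55 (43.6%), against 67955 of 121277 over all internal exons, and in G in 90.9% against 80.9%. Rpl8 encodes a ribosomal protein and Myh1 a fast myosin heavy chain of muscle.

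Each of the 55 genes had its second cluster upstream, within 100 bp of an annotated start in 51. That cluster had a median width of 64 bp and was wider than 20 bp in 47, while the sharp one had a median of 7 bp. The upstream cluster is by the rule the lower of the pair. The upstream cluster had a median of 0.744 of the sharp one's level (quartiles 0.546 and 0.896), with at least 0.5 in 43 genes and less in 12. At Ndufa5 the sharp cluster was at 202, 178, 193 and 224 CPM and the upstream one at 178, 155, 167 and 195 CPM. The ratio was thus 0.862 to 0.885 in the 4 libraries. At Ubap2l, a stress granule protein gene, the clusters lay 4525 bp apart and the ratio was 0.937 to 1.0. At Supt20, of the SAGA coactivator, it was 0.96 to 1.04. Genes with a much lower upstream cluster included Rpl8 (0.0723 to 0.0776), Myh1 (0.0413 to 0.0497) and the alarmin gene S100a9 (0.0135 to 0.021).

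The stretch of exon 1 between the upstream cluster's midpoint and exon 2 was short. In the 37 genes where exon 1 of that transcript held the midpoint, its median was 32 bases (quartiles 25 and 40), and 31 genes had at most 50 bases (83.8%). In wider promoters of coding genes at annotated starts, held to the same condition (n = 5373), the top cluster stood a median of 164 bases from the end of exon 1, with 6.29% at most 50. Sharp promoters at annotated starts had a median of 59 bases (n = 59) and 49.2% at most 50. What places tags at the start of exon 2 was not tested.

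**Figure D5:**
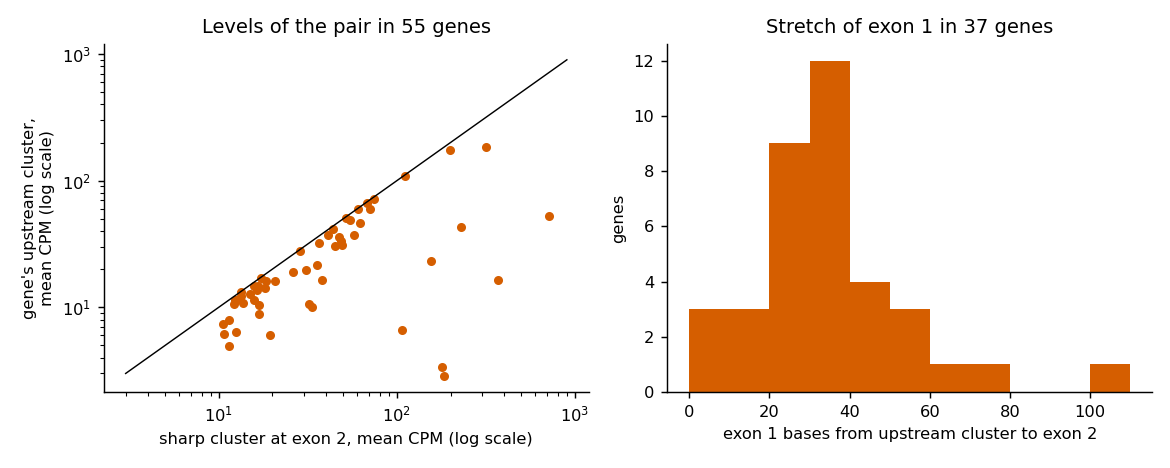
Left, mean CPM of the gene's upstream cluster against that of its sharp cluster at exon 2 in 55 genes (both axes log; line, equal levels); by the rule none can lie above it, and 43 of 55 have a ratio of at least 0.5. Right, number of exon 1 bases from the upstream cluster's midpoint to exon 2 in the 37 genes where exon 1 holds that midpoint, in bins of 10; the median is 32 bases.

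The same pairing was found from the other side. In 10 of the 143 members at an annotated start, the gene's second cluster began at an internal exon and had at least 0.5 of its level. At Prr9, a proline-rich protein gene of the hair and epidermis, the first cluster was at 592, 579, 265 and 375 CPM and the ratio was 0.981 to 0.987. Others were Sprr2f (0.875 to 0.885), Sprr2h (0.906 to 0.937), Lce1m (0.869 to 0.905), Clu (0.849 to 0.884) and the interferon response factor Irf7 (0.941 to 0.963). The top cluster held 49.9% of the gene's tags at Prr9 and a median of 99.9% over all 143.

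The 96 processed pseudogenes, intronless copies of mRNAs in the genome, were sharp in 37.6% of the top clusters of that kind, against 1.58% of coding genes at annotated starts. By name, 17 were copies of cytosolic ribosomal protein genes. Rps19-ps6 was at 1144, 1153, 997 and 1235 CPM. Rpl36-ps3 was at 496, 513, 461 and 536 CPM, and Rpl34-ps1 at 403, 398, 370 and 436 CPM. All 3 were close to level over the libraries. For 85 sharp pseudogenes a transcript start lay at most 100 bases from the cluster's 5′ edge. The 30 transcript bases from that edge on were read, or the transcript's first 30 where the edge lay upstream of it. In 66 of the 85 (77.6%) a coding transcript of another gene held these 30 bases without a mismatch. In the wider pseudogene clusters it was 95 of 132, a like share. In 46 of the 66 a ribosomal protein gene held the 30 bases.

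The coding gene's own top cluster was broad in these pairs, with a median width of 130 bp. Where a single coding gene held the 30 bases and had a top cluster of at least 10 CPM (55 pairs), the pseudogene stood at a median of 0.34 of that gene's level, with a range from 0.0101 to 4.04. Rpl34-ps1 was at 1.01 times Rpl34 (397 CPM), Rpl36-ps3 at 2.5 times Rpl36 (200 CPM) and Gm21399 at 3.39 times the peroxiredoxin gene Prdx1 (134 CPM). Gm8430, by contrast, was at 0.34 of Rps27a (709 CPM). Tags that match 2 genes alike can be assigned to either, and the sources used here do not state how they were treated, so the levels of these members are uncertain. Among coding ribosomal protein genes 4 of 93 were sharp.

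The remaining 35 members of other kinds included 14 small nucleolar RNA entries, of 56 with a top cluster of at least 10 CPM. Several repeat the cluster of another gene. Mir1894 (37.9 CPM) shared its cluster with the phosphatase subunit gene Ppp1r10, and Mir5130 (28.6 CPM) with Kctd12. In all, 39 sharp entries (11.4%) stood for 18 clusters listed under several genes, against 7.53% of the other entries. For these the table does not show which gene the tags came from.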

How the data were processed

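CAGE tags were counted in 4 libraries of 1 group. The authors deposited CPM per cluster of tag starts, scaled to all entries of a library; 100% of the deposited CPM values were whole multiples of 1 tag (tolerance 0.02 tags), so whole tags were recovered, and edgeR on them called 156 of 25530 clusters for spread against 143 by limma. BWA and HISAT2 and the mm9 build are named in the submitters' processing notes, with no role; the sources used here do not state the clustering step. Positions match GENCODE M21 on GRCm38, are given as deposited and may be off by 1 bp. Totals over all entries were 18179860, 18823630, 17630119 and 17939565 tags.

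From these values the top cluster per gene, its kind (start within 100 bp, or 5′ edge from 6 bases before to 2 bases after the first base of an internal exon) and its class by gene symbol were derived. The members and lists were chosen with earlier results of these data known. Spread was tested with limma 3.58.1 on log2(CPM + 1) after TMM scaling, for distinct clusters of at least 1 CPM on average, by its F statistic in the upper tail, the prior being robust and level-dependent (4.45 degrees of freedom), at a Benjamini-Hochberg adjusted 0.05; edgeR 4.0.16 and DESeq2 1.42.0 (dispersion outliers) were alternatives. The test takes the libraries as independent. No genome of the build was given, so motifs were read in RefSeq promoter windows (GRCm38; 250 bases before to 50 after the start), matched by symbol or a synonym for 86.7% of sharp and 80.6% of wider coding promoters, with at least 1 window of a gene needed to hold the motif; by cluster position 81.8% and 54.4% had a sequence, so sharp and wider sets were not compared by position. Pseudogene ends and exon junctions came from GENCODE M21 transcripts. Named members were the 20 highest, the 3 highest of each class with at least 5 members, the 5 called with the widest range, the neighbours of both limits and the 5 highest others; further genes were named after their values were seen. The 5 highest wider entries are the RNA genes Malat1 (11582 CPM, 81 bp) and Neat1 with 3 entries that repeat its cluster (238 bp). Intervals and floors cover counting error only. Python 3.11.15, pandas 2.3.3, numpy 2.4.6, scipy 1.17.1 and matplotlib 3.10.9 were used.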

Additional observations from a re-analysis of the deposited data

Results flagged for a closer look

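In 38 sets of 4 library values (named members and shares of tags), 5 had 1 value far from the other 3 by Dixon's criterion. Chance gives about 1 in 20, a rate that does not apply to members named for a wide range or a high mean, such as Bpifa2 and Smr3a, which reached 10 CPM only through the value in question. Bpifa2 was at 16004 CPM and Smr3a at 3484 CPM in library 2, far above the other libraries. Sprr1b was high in library 3 (1797 CPM) and Rpl8 in library 4 (759 CPM). Zfp422-ps, at the level limit, was low in library 3 (7.77 CPM).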

How the results depend on the processing

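No paired analysis was possible because all libraries belong to 1 group. A width limit of 10 bp gave 199 members, with a median level of 38.9 CPM and 2.39% of tags; limits of 15 and 30 bp gave 4.41% and 7.76% of tags. Without predicted, clone, small RNA and microRNA names 211 members were left. With a minimum of 5 or 20 CPM the median levels were 30.5 and 78.3 CPM (sharp) and 29.1 and 48.6 CPM (other). Leaving out each library in turn (members chosen again) gave 333 to 343 members, 5.29% to 6.15% of tags, medians of 46.9 to 51.7 CPM (sharp) and 36.0 to 36.6 CPM (other), and a median SD, over the same members, of 0.14 to 0.19 (sharp) and 0.09 to 0.10 (other). Coding genes at annotated starts alone (chosen after seeing the data) had a median SD of 0.38, with each shared cluster kept under 1 gene. For the other clusters it was 0.09 with log2(CPM + 5) and 0.12 with no scaling.

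The number of clusters called moved most. In all, among sharp and among other top clusters it was 414, 67 and 154 as DESeq2 dispersion outliers, 1221, 93 and 476 with no minimum, and 17, 3 and 13 with a minimum of 10 CPM, where Bpifa2, Pip and Smr3a were left. Leaving out each library gave 25 to 178, 5 to 55 and 16 to 75, the lowest without library 4 each time; the cause was not tested. All 47 sharp calls were also made by edgeR (49 in all).

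TATAAA alone was found in 44.4% of sharp and 2.34% of wider promoters. Chosen after seeing the data, the window before the midpoint gave 65.0% of sharp promoters, the 60 bases from 150 upstream gave 4.03% and 1.57%, and the reverse strand 20.2% and 2.73%. A width limit of 10 bp gave 46.9% and 4.85%. In a shorter window around the start, also chosen after seeing the data, the median CpG ratio was 0.279 and 0.880. The planned windows after and around the cluster midpoint were not run, since no genome was given. Of 132 alternatives 97 left a result the same, 35 moved it and 0 reversed it.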
